A study of Mus musculus with 2 samples.

Results

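The genes described here are the angiopoietin-TIE axis and the VE-cadherin complex of the vessel wall: the receptors Tek (Tie2) and Tie1, the ligands Angpt1 and Angpt2, the receptor phosphatase Ptprb (VE-PTP), and the contact genes Cdh5 (VE-cadherin), Pecam1, Esam, Ctnnd1 and Ctnna1. They were chosen by symbol for what their proteins do, and all 10 were found among the 53465 genes of the deposited expression table. The series compared endothelial cells isolated from C57Bl/6 mice of the tie2-cre genotype that had been treated with GFP or with NeuroD1, a transcription factor of neuronal differentiation. There was 1 library per treatment, and both treatments share the tie2-cre genotype, in which the promoter of the Tek gene drives Cre recombinase. That promoter is known to be active in endothelial cells and in part of the blood cell lineage. Cells of 3 mice were collected and 10000 cells were lysed, and the labels do not say whether the 3 mice belong to each treatment. Age, vector, dose and time after treatment are not in the labels.

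TEK is a receptor tyrosine kinase of endothelial cells. Angiopoietin 1, made mostly by pericytes and other cells around the vessel, activates it and keeps vessels quiet and tight, whereas angiopoietin 2, stored and released by endothelial cells themselves, can act as a weak agonist or an antagonist. TIE1 is a related receptor that binds no angiopoietin strongly and modulates TEK. VE-PTP, the product of Ptprb, removes phosphate from TEK and associates with VE-cadherin, the adhesion molecule of endothelial adherens junctions, which is anchored to actin through catenins. In brain vessels these contacts stand beside the tight junctions of the blood-brain barrier.

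Because the Tek promoter defines the mice, the 250 bases before the start of Tek are shown, from the RefSeq promoter table (build GRCm38.p6), 5′ to 3′ on the plus strand at chr4:94739039-94739288. Of the 10 genes, 3 had an entry in that table: Tek, Tie1 and Ctnnd1. No base of the Tek window lies in an exon of Tek in the GENCODE M21 annotation. Capitals mark the letters GGAA, the core that ETS factors recognise, on either strand (TTCC where it is on the minus strand). For Tie1, 212 of its 250 bases lie in a GENCODE first exon, so only 2 stretches on the minus strand are shown: the 38 bases before that exon (chr4:118490062-118490099, capitals marking GGAA or TTCC) and 30 bases around the one match to CAGATG, the E-box form that NEUROD1 is known to favour (chr4:118490015-118490044, capitals marking CAGATG).
Tek: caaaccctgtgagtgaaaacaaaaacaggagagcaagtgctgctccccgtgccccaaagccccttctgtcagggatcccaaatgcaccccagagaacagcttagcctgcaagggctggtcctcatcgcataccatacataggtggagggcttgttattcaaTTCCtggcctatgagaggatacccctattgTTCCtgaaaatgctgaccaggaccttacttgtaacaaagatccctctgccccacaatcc
Tie1, before the exon: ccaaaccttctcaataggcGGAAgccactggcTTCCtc
Tie1, E-box: gctccagcaatgCAGATGgaagggaccgaa
The Tek window held 2 matches to GGAA and the Tie1 window 7, counted on both strands, against a median of 3 over 32851 promoter windows of the same length. At least 1 match was present in 93.4% of all windows, and 3.82% had 7 or more. CAGATG was found once in the Tie1 window, where it shares its last base with a GGAA match, and in 14.4% of all windows. That match lies inside the GENCODE first exon of Tie1, as do 212 of the 250 bases of the window. The Tie1 counts are therefore mostly counts in exon sequence. The Tek window held no CAGATG. Its general form CANNTG was found 2 times in the Tek window and in 66.2% of all windows. These are matches of letters and say nothing of binding.

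Levels are given in FPKM, fragments divided by exon length and by a library factor of the authors, and reads were recovered from FPKM and exon length. On this deposited scale 1 read counts 1.13 times as much in NeuroD1 as in GFP, although the recovered reads summed to nearly the same number, 2011130 in GFP and 2001426 in NeuroD1. The factor thus does not follow the recovered totals, and every ratio below depends on it. The 19 genes above 1000 FPKM in one library or both held 52.3% of recovered reads in GFP and 57.4% in NeuroD1. Outside these genes GFP held more reads, 958799 against 851964. Over those other genes the deposited FPKM summed nearly alike, an equal sum needing a factor of 1.003 on NeuroD1. The 10 genes were read at low to moderate depth: the 9 with recovered reads held 946 reads in GFP and 778 in NeuroD1, of 958799 and 851964 reads outside the 19 genes above 1000 FPKM. Because each treatment has 1 library, differences could not be checked against replicates and carry no p-value. Intervals are exact 95% intervals that cover counting error only. Neurod1 itself stood at 0.664 FPKM with GFP and 182 FPKM with NeuroD1. To show what level the libraries give to genes outside the known repertoire of endothelial cells, each gene is set beside 1515 chemoreceptor genes, the receptors of smell and taste. Their median was 1.54 FPKM with GFP and 1.40 FPKM with NeuroD1, and their 95th percentile was 4.38 and 4.79 FPKM.

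Of the receptors, Tek (ENSMUSG00000006386, GRCm38 chromosome 4, 94739289 to 94874976, plus strand) was read 96 times in the GFP-treated sample and 63 times with NeuroD1. Its level was 9.22 FPKM in GFP (interval 7.47 to 11.3) and 6.86 FPKM in NeuroD1 (interval 5.27 to 8.77). The NeuroD1 value was the lower of the pair, with a ratio of 0.743, but its interval of 0.532 to 1.03 reached 1. The level of Tek exceeded 98.9% of chemoreceptor genes in GFP and 97.5% in NeuroD1, so the receptor that defines the mice stood above their 95th percentile in both libraries. In bulk RNA, fewer cells of a type and less RNA per cell cannot be told apart.

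Tie1 (ENSMUSG00000033191, chromosome 4, 118471191 to 118490061, minus strand), the partner receptor, stood at 5.80 FPKM with GFP and 4.48 FPKM with NeuroD1, from 63 and 43 reads. The ratio was 0.773 with an interval of 0.512 to 1.16, close to that of Tek. In NeuroD1 the level lay below the chemoreceptor 95th percentile, and in GFP above it. Within a library, Tie1 was the lower of the receptors: its FPKM was 0.629 times that of Tek in GFP (interval 0.450 to 0.873) and 0.654 times in NeuroD1 (interval 0.433 to 0.979). These ratios were close, but intervals this wide do not show that the proportion of the receptors was the same in both libraries.

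Among the ligands, Angpt1 (ENSMUSG00000022309, chromosome 15, 42424723 to 42676977, minus strand), the agonist, stood at 1.39 FPKM with GFP and 1.38 FPKM with NeuroD1. These values rest on 16 and 14 reads, where a gene of its length at the chemoreceptor median would hold 17.7 and 14.3 reads. Angpt1 was therefore at the level of genes that these cells are not known to use, and expression was not detectable above it at this depth. Its ratio of 0.991 has an interval of 0.448 to 2.17. Of its exon bases, 737 are shared with the antisense gene Gm17473, at 0.779 and 0.630 FPKM, and without strand the reads of the pair cannot be told apart.

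Angpt2 (ENSMUSG00000031465, chromosome 8, 18690263 to 18741562, minus strand), the context-dependent ligand, stood at 5.40 FPKM with GFP and 3.89 FPKM with NeuroD1, from 44 and 28 reads. The ratio was 0.721 with an interval of 0.432 to 1.18. The NeuroD1 level exceeded 92.7% of chemoreceptor genes and lay below their 95th percentile. Angpt2 stood above Angpt1 in each library, and since Angpt1 was not above the chemoreceptor median no fold between them is given. Angpt2 lies within the span of Mcph1 on the opposite strand, with no exon base in common.

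Ptprb (ENSMUSG00000020154, chromosome 10, 116275523 to 116389535, plus strand) had the most reads of the 10 genes, 335 and 271, over 13333 bases of exon. Its level was 11.4 FPKM in GFP (interval 10.2 to 12.7) and 10.4 FPKM in NeuroD1 (interval 9.22 to 11.7), with a ratio of 0.916 (interval 0.778 to 1.08). This is the tightest interval of the set, and a decrease by more than 22.2% lies outside it on the deposited scale. Set against its substrate receptor, Ptprb stood at 1.23 times the FPKM of Tek in GFP (interval 0.980 to 1.56) and 1.52 times in NeuroD1 (interval 1.15 to 2.03).

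**Figure D1:**
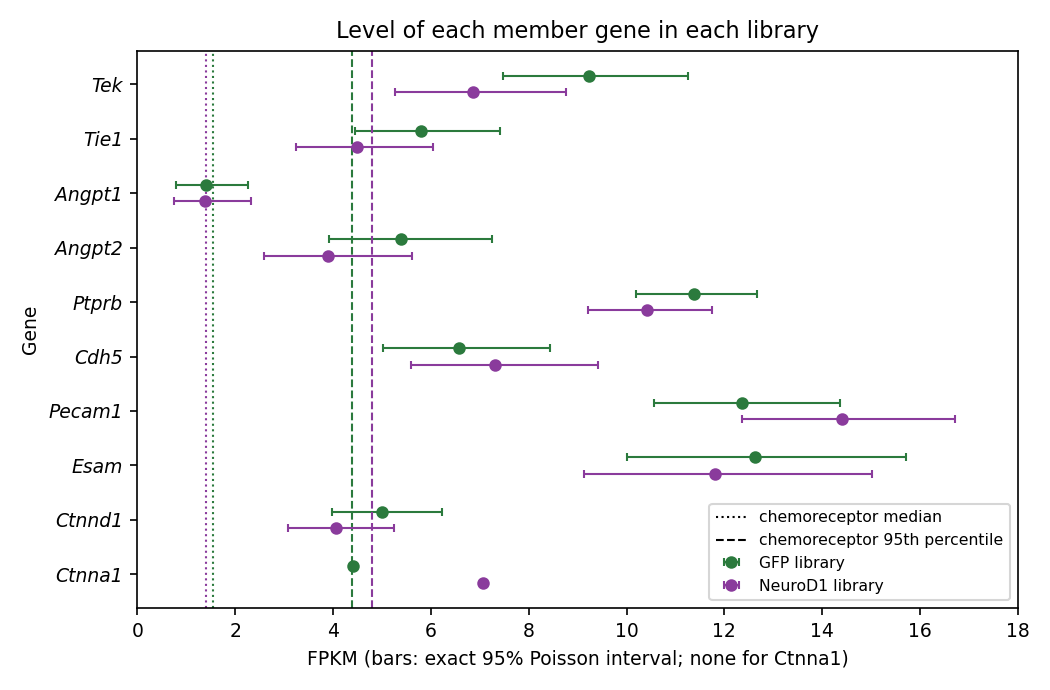
FPKM of each of the 10 genes (horizontal axis) in the GFP and NeuroD1 libraries, with exact 95% Poisson intervals as bars; dotted and dashed lines give the median and 95th percentile of chemoreceptor genes in the library of the same colour. Pecam1, Esam and Ptprb lie above 10 FPKM in both libraries, Angpt1 lies at the chemoreceptor median, and Ctnna1 has no interval because its reads were not recovered.

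Of the contact genes, Cdh5 (ENSMUSG00000031871, chromosome 8, 104101625 to 104144511, plus strand), which encodes VE-cadherin, stood at 6.57 FPKM with GFP and 7.32 FPKM with NeuroD1, from 61 and 60 reads. The ratio was 1.11 with an interval of 0.767 to 1.62. Pecam1 (ENSMUSG00000020717, chromosome 11, 106654217 to 106750628, minus strand), a homophilic adhesion molecule of endothelial cells, platelets and leukocytes, had 170 and 175 reads. These gave 12.4 and 14.4 FPKM and a ratio of 1.17 (interval 0.939 to 1.45). Both genes were a little higher in NeuroD1 on the deposited scale, within counting error, and a little lower with FPKM summing to the same total in each library (equal-sum scaling).

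Esam (ENSMUSG00000001946, chromosome 9, 37528078 to 37538319, plus strand), an immunoglobulin-type adhesion molecule of endothelial cells and platelets, stood at 12.6 FPKM with GFP and 11.8 FPKM with NeuroD1, from 80 and 66 reads. Its ratio was 0.934 with an interval of 0.664 to 1.31. Pecam1 and Esam were each more abundant than Cdh5. Pecam1 reached 1.88 times the FPKM of Cdh5 in GFP (interval 1.40 to 2.56) and 1.97 times in NeuroD1 (interval 1.46 to 2.69). Esam reached 1.92 times in GFP (interval 1.36 to 2.73) and 1.61 times in NeuroD1 (interval 1.12 to 2.33).

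The catenins bear on VE-cadherin from the cytoplasmic side. Ctnnd1 (ENSMUSG00000034101, chromosome 2, 84600071 to 84650765, minus strand), p120-catenin, which holds VE-cadherin at the membrane, stood at 5.01 FPKM with GFP and 4.06 FPKM with NeuroD1, from 81 and 58 reads. The ratio was 0.811 with an interval of 0.569 to 1.15. Of its 7319 exon bases, 4482 are shared with the same-strand gene Gm28635, listed at 0 in both libraries. The sources used here do not say how reads in shared exons were counted, so the level of Ctnnd1 is uncertain. Relative to Cdh5 it stood at 0.763 in GFP (interval 0.540 to 1.08) and 0.555 in NeuroD1 (interval 0.380 to 0.810).

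Ctnna1 (ENSMUSG00000037815, chromosome 18, plus strand), alpha-catenin, the link from the junction to actin, showed the widest separation of the 10 genes on the deposited scale; with equal-sum scaling Tek, Angpt2, Tie1 and Ctnnd1 were further apart than Ctnna1. It stood at 4.41 FPKM with GFP and 7.07 FPKM with NeuroD1, a ratio of 1.605. Its values gave no whole reads with the 6425 exon bases of GENCODE M21 (62.5 and 88.6), so its length in the authors' annotation is not known here. Chosen after seeing the data, the read pairs in the observed proportion that need a whole number of bases start at 36 and 51 reads for 3698 bases, followed by 72 and 102 reads for 7396 bases. With the first pair the interval is 1.03 to 2.53 and with the second 1.18 to 2.20. With equal-sum scaling, the ratio was 1.36 and these intervals were 0.872 to 2.15 and 0.998 to 1.87. The exons share 95 bases with Lrrtm2 on the opposite strand, which stood at 2.08 FPKM in each library.

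**Figure D2:**
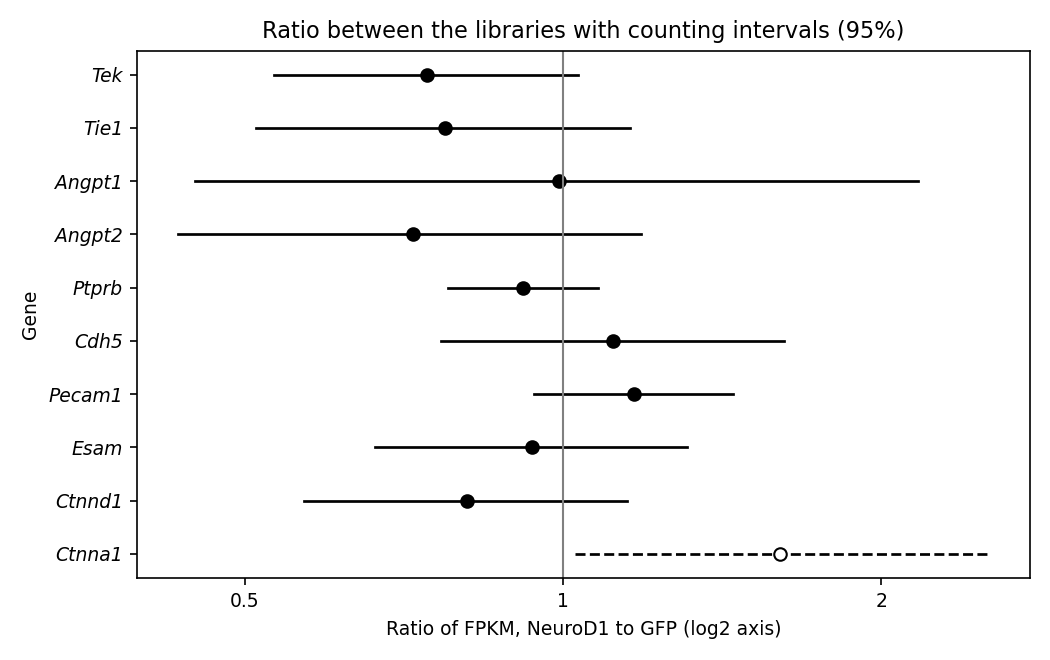
Ratio of FPKM in NeuroD1 to GFP for each gene (log2 axis) with exact 95% counting intervals on the deposited scale; the open circle and dashed interval of Ctnna1 use the smallest possible pair of reads, 36 and 51. The intervals of the 9 other genes include 1, and Tek (0.532 to 1.03) and Pecam1 (0.939 to 1.45) come closest to leaving it out on either side; with equal-sum scaling, Cdh5 and Pecam1 move below 1.

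On the log2(FPKM + 1) scale, which understates the change of low genes, none of the 9 genes with at least 5 FPKM in one library or both differed by 1 or more, the difference counted as 2-fold. Angpt1 did not reach that minimum. Over all genes past the minimum, 12.9% were higher and 15.6% lower by such a difference in NeuroD1, and over protein-coding genes 3.25% and 3.31%. None of the 9 genes with recovered reads had a ratio interval that left out 1, against 5.93% above 1 and 6.22% below it among 14791 protein-coding genes read 20 times or more. With shares of this size, a count of 0 among 9 genes is near the background.

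Grouped by role, the differences were as follows, as a description of these libraries. All 5 genes of the receptor side (Tek, Tie1, Angpt1, Angpt2 and Ptprb) were at a difference below 0, beside 10688 of 20697 measured protein-coding genes. The median of the 5 was -0.31, and their summed level was 33.2 FPKM with GFP and 27.03 FPKM with NeuroD1. For Angpt1 the difference was -0.0075 and is no more than a tie. Of the 5 contact genes, 3 were above 0 (Cdh5, Pecam1 and Ctnna1, of which equal-sum scaling leaves Ctnna1 alone) and 2 below (Esam and Ctnnd1), with a median of 0.14, and their summed level was 41.0 FPKM with GFP and 44.7 FPKM with NeuroD1. Over all 10 genes the median was -0.10, beside -0.016 for 20697 protein-coding genes at 1 FPKM or more.

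Protein-coding genes of like level give the frame for single differences. Among 4103 genes with a mean of 5 to 10 FPKM, the middle 50% lay between -0.22 and 0.25. Tek, at -0.38, was at percentile 13.8 of those genes and Tie1, at -0.31, at percentile 17.5, whereas Ctnna1, at 0.58, was at percentile 92.6 and Cdh5, at 0.14, at percentile 62.6. Angpt2, at -0.39, was at percentile 19.5 of the 10774 genes between 2 and 5 FPKM, where Ctnnd1, at -0.25, was at percentile 28.8. Ptprb, at -0.12, Esam, at -0.090, and Pecam1, at 0.21, were at percentiles 23.9, 25.7 and 60.1 of the 557 genes between 10 and 20 FPKM, whose median was 0.12. None of the genes stood in the outer 5% of its level on either side.

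**Figure D3:**
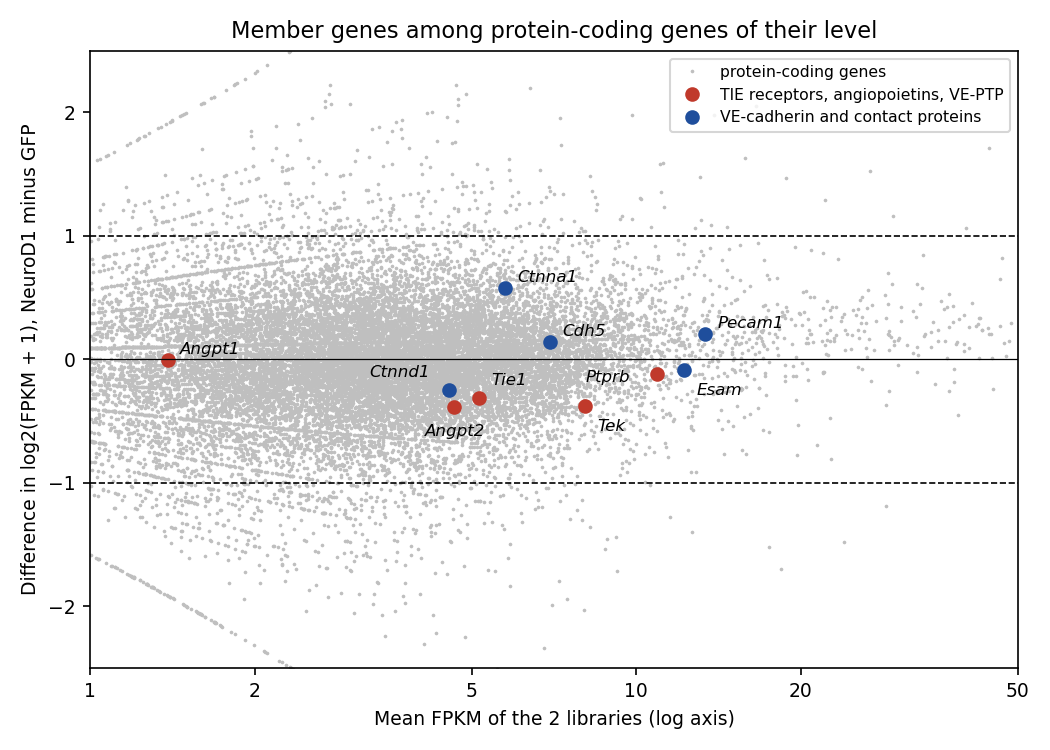
Difference in log2(FPKM + 1), NeuroD1 minus GFP, against mean FPKM (log axis), for protein-coding genes (grey) and the 10 genes by role (red, receptor side; blue, contact side); dashed lines mark 1 and -1. All 10 genes lie between the dashed lines, the red points at or below 0 and Ctnna1 highest at 0.58; with equal-sum scaling, Cdh5 and Pecam1 also lie below 0.

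How the libraries are scaled to each other bears on the receptor side. The values above use FPKM as deposited. With equal-sum scaling, which moved the median of protein-coding genes from -0.016 to -0.19, the ratio interval lay below 1 for Tek (ratio 0.631, interval 0.452 to 0.876), Tie1 (0.656, interval 0.435 to 0.983), Ptprb (0.778, interval 0.660 to 0.916) and Ctnnd1 (0.689, interval 0.483 to 0.977), and on that scale so did 16.0% of protein-coding genes. With scaling by the median ratio of protein-coding genes at 5 FPKM or more in both, Tek was the single gene of the 9 below 1 (ratio 0.713, interval 0.511 to 0.990), beside 7.94% of protein-coding genes. Equal-sum scaling multiplied NeuroD1 values by 0.849. With genes above 1000 FPKM left out of the sums, an alternative chosen after seeing the data, the factor was 1.003. All 9 intervals then included 1, with Tek at 0.746 (interval 0.534 to 1.04) and Ptprb at 0.919 (interval 0.780 to 1.08). On that scale 6.15% of protein-coding genes lay below 1.

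The order of levels was alike in both libraries at its ends. In GFP, Esam, Pecam1, Ptprb and Tek came first, in that order, then Cdh5, Tie1, Angpt2, Ctnnd1, Ctnna1 and Angpt1. In NeuroD1 the order was Pecam1, Esam, Ptprb, Cdh5, Ctnna1, Tek, Tie1, Ctnnd1, Angpt2 and Angpt1. Of neighbours with an interval, most did not differ beyond counting error. Those that did were Tek above Cdh5 in GFP (1.40 times, interval 1.01 to 1.97) and, in NeuroD1, Ptprb above Cdh5 (1.42 times, interval 1.07 to 1.92), Tek above Tie1 (1.53 times, interval 1.02 to 2.31) and Angpt2 above Angpt1, which lay at the chemoreceptor median. Neighbours of Ctnna1 have no interval. These levels are per exon length. Reads rose with exon length across protein-coding genes (Spearman rho 0.770 in GFP and 0.755 in NeuroD1, over 20080 genes, which share the library) although the reverse transcription primers were those of DRUG-seq, a method that barcodes the 3′ end of transcripts. Over 1374 chemoreceptor genes rho was 0.708 in GFP and 0.669 in NeuroD1, so the rise was also present among genes these cells are not known to use.

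By Euclidean distance over the 2 values of log2(FPKM + 1), the protein-coding genes most like Tek in level were Nup85, at 9.23 and 6.82 FPKM, Taf13, at 9.18 and 6.83 FPKM, and U2af1, at 9.30 and 6.84 FPKM. Those most like Cdh5 were Hspa9, Bzw1 and Plin3, and 39 genes lay within a distance of 0.1 of Tek and 172 of Cdh5. With 2 libraries this is a likeness of level and of 1 difference.

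The wider TIE pathway was described by 17 further genes, all at 1 FPKM or more in one library or both. Of these, 12 were at a difference above 0 and 5 below, with a median of 0.10, beside 48.4% of protein-coding genes above 0; with equal-sum scaling, 7 were above 0 and the median was -0.064. None of the 6 past 5 FPKM differed 2-fold. Adam17, a sheddase linked to cleavage of TIE1, was the most abundant, at 16.6 FPKM with GFP and 19.3 FPKM with NeuroD1 (ratio 1.16, interval 0.977 to 1.38). Angpt4, the third ligand, stood at 1.94 and 4.17 FPKM from 10 and 19 reads (interval 0.952 to 5.18), within the range of chemoreceptor genes. The adaptor Grb2 stood at 4.66 and 6.86 FPKM (interval 0.891 to 2.45), and Tnip2, an NF-kB regulator that binds TEK, at 5.56 and 3.63 FPKM (interval 0.350 to 1.18).

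Dok2, an adaptor recruited to phosphorylated TEK and also known from blood cells, was the single gene of the 17 whose interval left out 1, at 3.59 FPKM with GFP and 1.41 FPKM with NeuroD1 from 23 and 8 reads (ratio 0.394, interval 0.152 to 0.912). That is 1 gene of 17, beside 6.22% of protein-coding genes below 1. Both values of Dok2 lay below the chemoreceptor 95th percentiles of 4.38 and 4.79 FPKM. Its NeuroD1 value was close to the chemoreceptor median of 1.40 FPKM.

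Of 21 further genes of endothelial contacts, 20 were in the table and all of those were measured; Cd99 was not analysed here. At a difference above 0 were 9, beside 48.4% of protein-coding genes, and below 0 were 11. The median was -0.084, and with equal-sum scaling 4 were above 0. No gene of the 13 past 5 FPKM differed 2-fold. Of 18 with at least 20 reads, 2 had an interval above 1 and 1 had an interval below it, beside 5.93% above and 6.22% below over protein-coding genes. Counts this small do not set the list apart from those shares. Afdn (afadin), which ties nectins to actin, had 514 and 624 reads and stood at 22.8 and 31.3 FPKM (ratio 1.38, interval 1.22 to 1.55). Among protein-coding genes of its level, with a mean between 20 and 50 FPKM, 44.4% had an interval above 1. Jam3, an immunoglobulin-type junction molecule, stood at 1.27 and 4.01 FPKM from 9 and 25 reads (ratio 3.15, interval 1.42 to 7.66). Cdh2 (N-cadherin), which joins endothelial cells to pericytes and is also neuronal, was lower in NeuroD1, at 2.64 and 1.21 FPKM from 47 and 19 reads (ratio 0.458, interval 0.254 to 0.795).

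Other contact genes named by the rule had intervals that included 1. Icam2, an endothelial ligand of leukocyte integrins, stood at 8.80 and 5.39 FPKM (interval 0.337 to 1.08), Mcam, shared by endothelial and mural cells, at 4.59 and 2.60 FPKM (interval 0.297 to 1.04), and the small GTPase Rap1a, which supports VE-cadherin contacts, at 16.1 and 13.4 FPKM (interval 0.597 to 1.14). The values of Jam3 and Cdh2 in both libraries, and of Mcam in NeuroD1, lay below the chemoreceptor 95th percentile. Jam3 in GFP, at 1.27 FPKM, was also below the chemoreceptor median of 1.54 FPKM. Cdh2 in NeuroD1, at 1.21 FPKM, was below the median of 1.40 FPKM.

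The cells were labelled endothelial. None of 16 defining endothelial markers was at 0 in either library, where 666 of 22040 protein-coding genes were at 0 in GFP and 864 in NeuroD1. Above the chemoreceptor 95th percentile lay 14 of the markers in GFP and 15 in NeuroD1, beside 6606 and 5425 protein-coding genes. The summed level of the markers was 244 FPKM with GFP and 287 FPKM with NeuroD1. Of the 16, 14 were at a difference above 0, with a median of 0.33, or 10 of 16 and 0.10 with equal-sum scaling. Over all measured protein-coding genes 48.4% were above 0, and the share rose with level, being 53.9% for genes with a mean between 5 and 10 FPKM, 65.2% for those between 10 and 20, and 85.2% for those between 20 and 50, whose median was 0.23; of the markers, 5 had a mean between 10 and 20 FPKM and 3 between 20 and 50 FPKM. Of 15 with at least 20 reads, 7 had an interval above 1 and none below, beside 5.93% of protein-coding genes above 1, a share that in the same 3 level ranges was 7.69%, 19.4% and 44.4%. They included Erg, an ETS factor, at 12.1 and 16.9 FPKM (ratio 1.39, interval 1.05 to 1.85), Egfl7, a secreted endothelial protein, at 5.56 and 9.88 FPKM (ratio 1.78, interval 1.20 to 2.65), Sox18 at 6.43 and 11.7 FPKM (ratio 1.82, interval 1.05 to 3.21) and Ly6c1 at 48.6 and 60.8 FPKM (ratio 1.25, interval 1.02 to 1.54). Emcn, at 3.26 and 4.93 FPKM, and Slc2a1, at 33.4 and 36.0 FPKM, had intervals that included 1. The receptor-side genes, 5 of 5 below 0 with Angpt1 no more than a tie, and these markers thus lay on opposite sides of 0 at their medians. On the deposited scale the intervals of all 5 receptor-side genes included 1. The lists also differ in level, with medians of 5.80 and 4.48 FPKM for the receptor side and 10.8 and 11.8 FPKM for the markers. The difference between these lists was not tested.

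Markers of other cells that could bring in these transcripts were measured as well. Of 14 mural markers, the usual source of Angpt1, 4 were above the chemoreceptor 95th percentile in GFP and 3 in NeuroD1. Beside them, 6606 and 5425 of 22040 protein-coding genes were above it. The mural markers summed to 52.2 and 48.1 FPKM. Their median difference was -0.20, with 4 of 13 measured above 0, beside 48.4% of protein-coding genes. Kcnj8, a pericyte channel below the chemoreceptor 95th percentile in both libraries, stood at 3.38 and 0.604 FPKM from 19 and 3 reads (ratio 0.179, interval 0.0339 to 0.608). The most abundant mural genes lay the other way: Acta2, smooth muscle actin, whose FPKM were 7.63 and 10.9 (no interval could be formed), and Cnn1, calponin, at 7.11 and 9.93 FPKM (interval 0.916 to 2.14). Of 9 mural markers with at least 20 reads, 2 had an interval below 1, beside 6.22% of protein-coding genes. Of 9 platelet markers, which matter for Pecam1, Esam and Tek-lineage blood cells, 8 were below 0, beside 10688 of 20697 measured protein-coding genes. The platelet markers had a median of -0.44 and summed levels of 36.9 and 23.8 FPKM. Some of these rest on few reads, such as Pf4 with 9 and 3. Above the chemoreceptor 95th percentile, 4.38 FPKM in GFP and 4.79 FPKM in NeuroD1, lay 4 platelet markers in GFP and 1 in NeuroD1. Gp1ba, at 4.72 FPKM, and Treml1, at 4.75 FPKM, were just below the higher line in NeuroD1. Gp1ba stood at 9.49 and 4.72 FPKM from 57 and 25 reads (ratio 0.497, interval 0.297 to 0.808). It was the single marker of the 5 with at least 20 reads whose interval lay below 1, beside 6.22% of protein-coding genes. The 16 markers of microglia and leukocytes had a median of -0.062 and summed levels of 73.5 and 77.6 FPKM, with 7 above that percentile in GFP and 4 in NeuroD1. No defining marker of these lists was at 0 in either library. Of 22040 protein-coding genes, 666 were at 0 in GFP and 864 in NeuroD1, so a level other than 0 does not show that these cells were present. The part of these other cells in the values of the 10 genes was not tested.

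Markers of neural cells gave medians of -0.023 for 8 astrocyte genes, 0.31 for 9 neuron genes and 0.039 for 9 oligodendrocyte genes, of which 8 were measured. Their summed levels were 22.8 and 22.5 FPKM, 50.7 and 60.4 FPKM, and 28.9 and 29.7 FPKM. The oligodendrocyte median was -0.0072 with the median-ratio scaling and -0.14 with equal-sum scaling, and the astrocyte and neuron medians kept their sign under those scalings.

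**Figure D4:**
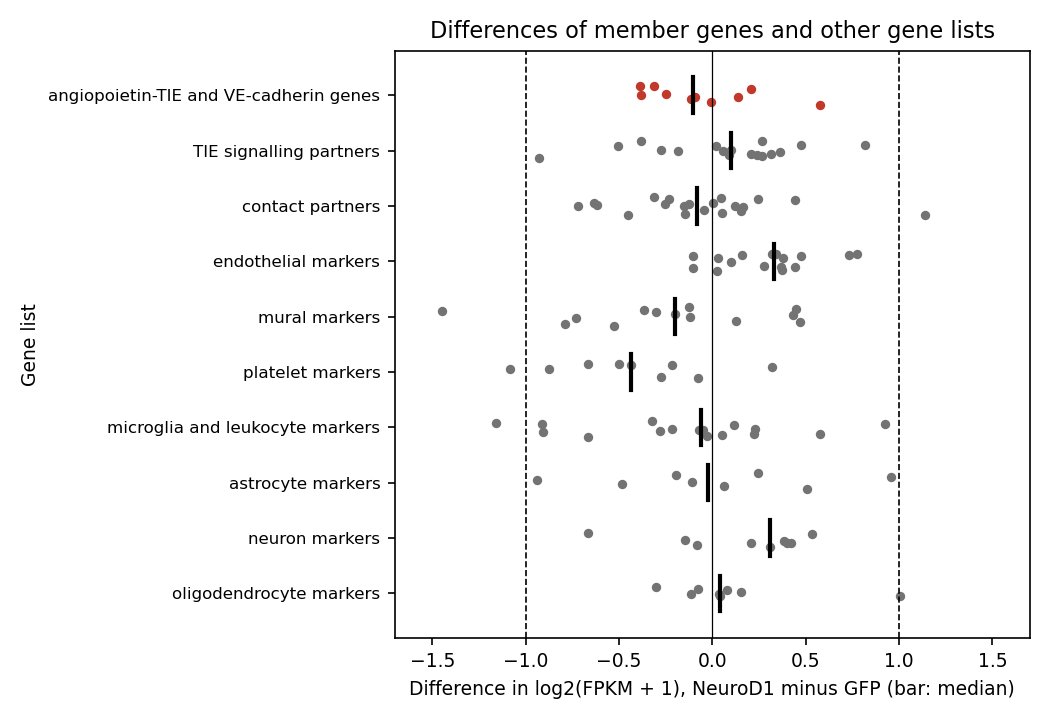
Difference in log2(FPKM + 1), NeuroD1 minus GFP, for each measured gene of the 10 genes (red) and of the other lists (grey), with the median of each list as a black bar and dashed lines at 1 and -1. The 10 genes have a median of -0.10 and the endothelial markers one of 0.33; with equal-sum scaling these are -0.32 and 0.10, and the medians of the TIE signalling partners and oligodendrocyte markers fall below 0.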

How the data were processed

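The 2 libraries came as a single FPKM table that the authors deposited. Its making involved the GRCm38 build, featureCounts 1.6.3, DESeq and Bowtie2 2.3.5.1, per the submitters' processing notes. The treatment of strand, multi-mapping reads and molecular identifiers is not given there. FPKM times merged exon length (GENCODE M21, GRCm38) was a whole multiple of 1 step per library, 452.7 for GFP and 512.7 for NeuroD1. Reads came out whole within 0.02 in both libraries for 51162 genes (95.7%), and summed to 2011130 and 2001426. Intervals of ratios are exact Clopper-Pearson intervals of the reads, and those of levels are exact Poisson intervals. PCR reads are not shown to be independent molecules, so both cover counting error only.

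Differences used a pseudocount of 1. Counts of genes used a minimum of 5 FPKM, and lists a minimum of 1 FPKM, in one library or both. The genes and lists were chosen with earlier results of these data known. Named were all 10 genes, up to 4 genes of each other list with the largest difference and the 2 most abundant. Of marker lists for other cells only those that bear on a result are named. Alternatives were other pseudocounts, minimums and scalings. The steps were tested on simulated data. Software was matplotlib 3.10.9, pandas 2.3.3, scipy 1.17.1 and numpy 2.4.6 under Python 3.11.15.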

Additional observations from a re-analysis of the deposited data

How the results depend on the processing

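No paired analysis was possible because GFP and NeuroD1 have 1 library each, so no library could be left out either. Over 6 other settings for each of the 10 genes, 57 of 60 differences kept their sign and none passed 2-fold. The exceptions were Angpt1, at 0 with the chemoreceptor median subtracted, and Cdh5 and Pecam1, at -0.069 and -0.014 under equal-sum scaling. Ptprb moved from -0.12 to -0.33 with that scaling, to the edge of its counting interval. The same setting moved the medians of the 10 genes, the TIE signalling partners and the contact partners to -0.32, -0.064 and -0.28. With a minimum of 5 FPKM the median of the contact partners was 0.0019 over 13 genes, against -0.084 over 20. Over all genes, 1887 were higher and 2295 lower past 2-fold. With no minimum these counts became 4343 and 6195, at 5 FPKM in each library 237 and 164, among protein-coding genes 208 and 212 and among those read 20 times or more 98 and 103, using a pseudocount of 5 they became 1061 and 1387, and under equal-sum scaling 1264 and 2685. Filters change these counts by construction. For the pseudocount and the scaling the cause was not tested. Chosen after seeing the data were the minimum of 20 reads, the scaling without genes above 1000 FPKM, the intervals under other scalings and the read pairs of Ctnna1. Depth limits the set: at 30 to 606 reads per gene over both libraries, the intervals of the 9 genes span from 1.39-fold to 4.84-fold between their limits.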
